A study of Rattus norvegicus with 12 samples.

Results

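Low intensity pulsed ultrasound (LIPUS) was compared across crushed rat sciatic nerve, with all 6 libraries that received it set against all 6 that did not. The members are all 12 of the 12 libraries of the series, chosen by their labelled treatment. The 6 with ultrasound were 3 LIPUS libraries (replicates 2, 6 and 7) and 3 Exosome+LIPUS libraries (replicates 1, 2 and 3). The 6 without were 3 Control libraries (replicates 1, 4 and 9) and 3 Exosome libraries (replicates 2, 3 and 5). Exosomes were therefore present in 3 libraries on each side, and their mean difference was taken out as a covariate. The question was whether ultrasound goes with a change in gene expression that holds whether or not exosomes were also given.

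All rats were Sprague-Dawley (SD), and all 12 nerves had been crushed, so that no uninjured nerve enters the comparison. The design text describes male rats 5 weeks old, for groups that do not include ultrasound. Control nerves carry no further treatment in the labels, and neither Control nor LIPUS nerves have an injection there. By the study's methods, its crushed comparison group was injected with 10 µL of phosphate-buffered saline. Exosome nerves received 10 µL of iPSC-Exos, vesicles released by cultures of human induced pluripotent stem cells, at labelled concentrations of 103, 104 and 105 µg/mL in replicates 2, 3 and 5. The Exosome+LIPUS nerves received 10 µL at 100 µg/mL. The paper names 100 µg/mL as its choice for work in animals, and whether the labels 103, 104 and 105 are separate doses is not known. Ultrasound was given on one side at 250 mW/cm² and 1 MHz with a 20% duty cycle, for 5 minutes a day on 5 days a week over 4 weeks, by the labels. The libraries without ultrasound were taken on postoperative day 7 by the study's methods, and the sampling day of the ultrasound libraries is not given in the sources used here. Ultrasound and time since the crush therefore cannot be told apart. The labels name whole brain as the tissue and the extraction protocol names sciatic nerve. No tissue marker could be checked, because the counts list genes by Ensembl ID only, and 0 of the 30562 IDs could be paired with a gene name here.

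After a crush, the axon beyond the injury breaks down while the outer sheath of the nerve stays in place. Schwann cells leave the myelinating state, divide and support regrowing axons, and macrophages clear the myelin debris. Ultrasound of low intensity is a mechanical stimulus without marked heating. It is thought to act on cells through stretch-sensitive channels and adhesion sites, and it is used clinically on healing bone. Exosomes carry proteins and RNA between cells. Bulk RNA from a nerve mixes all of these cells, and in it fewer cells of a type and less RNA per cell cannot be told apart.

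Total counts ran from 1251715 to 1542634 with ultrasound (median 1406946.5) and from 1259178 to 1854545 without (median 1318408). The number of genes with any count was 7698 to 8704 per library with ultrasound and 7470 to 8538 per library without. A gene with 3 counts lay at 1.93 to 2.33 CPM (counts scaled to a common, normalised library size) with ultrasound and at 2.13 to 2.59 CPM without. Beyond counting error, the coefficient of variation between replicates was 23.2%. One library stood apart before any comparison was made. In Control replicate 9, a single gene, ENSRNOG00000020644, held 32.5% of all counts (95% Wilson interval 32.4 to 32.5%, counting error only). This gene was picked out with its values known. Its share was 1.08 to 2.85% in the other 5 libraries without ultrasound. With ultrasound it was 0.391 to 2.71% in 5 libraries and 9.28% in Exosome+LIPUS replicate 2. Counts of genes that moved most without Control replicate 9 are therefore also given without it.

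No gene differed between the libraries with and without ultrasound after adjustment. Of 4640 genes with enough counts to test, 0 (0%) had an adjusted p under 0.05 (edgeR's quasi-likelihood test with exosomes as a covariate and Benjamini-Hochberg adjustment), and the smallest adjusted p was 0.625. At an unadjusted p under 0.05 there were 179 genes, or 3.86% of those tested, where an even spread of p-values gives 5%. The count was also 0 with DESeq2, whose smallest adjusted p was 0.0877 and which, run on 14298 genes without the filter on low counts, gave 232 an unadjusted p under 0.05 (1.63% of those given a p). With limma-voom it was 0 as well, with 200 of the 4640 genes (4.31%) at an unadjusted p under 0.05. When genes of low counts were not filtered out, edgeR gave 58 of 14298 genes an adjusted p under 0.05. In each of these 58 the libraries with and without ultrasound overlapped, as they did in all but 2 (0.0431%) of the 4640 genes. DESeq2 gave all 58 the same direction and 36 of them an unadjusted p under 0.05, with no p for 11. Without Control replicate 9 the adjusted count from edgeR with the filter was again 0 of 4822 genes. The number with an unadjusted p under 0.05 then went from 179 to 341, or 7.07%, and it was 334 when the same 4640 genes were tested.

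The study's own threshold asks for a p no higher than 0.05 before adjustment together with a log2 fold change of 0.5 or more in size. The study applied it to results of DESeq2, and here it was applied to those of edgeR on the filtered genes. By it, 62 genes were higher with ultrasound (1.34% of those tested) and 43 were lower (0.927%). Without Control replicate 9, edgeR gave 76 higher and 59 lower. DESeq2, on 14298 genes of all 12 libraries, gave 101 higher and 69 lower. The values that follow are from edgeR. The median log2 fold change was 0.87 among the 62 and -0.98 among the 43, and 21 genes in each direction had an absolute value of at least 1. None of these 105 genes had an adjusted p below 0.625. In 0 of the 105 did all 6 libraries with ultrasound lie on one side of all 6 without. Over all 4640 genes that was the case for 2, or 0.0431%, 1 of them higher with ultrasound (0.0216%) and 1 lower (0.0216%). Their log2 fold changes were 0.46 and -0.47, short of the 0.5 of the threshold. When each of the 12 libraries was left out in turn, 34 of the 105 genes (32.4%) passed the threshold in every fit, 21 higher and 13 lower. Leaving out Exosome replicate 3 removed the most, with 64 of the 105 still passing. All 105 kept their direction in every one of these fits in which they were tested. Their choice on these same libraries made that likely, so it is no separate check.

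**Figure D1:**
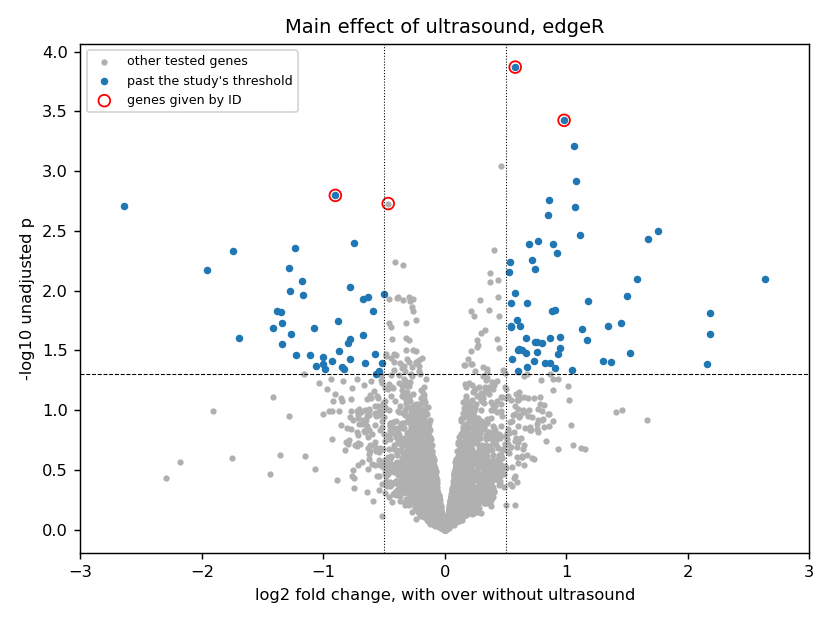
Main effect of ultrasound for the 4640 tested genes, with the log2 fold change (with over without ultrasound) on the x axis and -log10 of the unadjusted p on the y axis. Blue points are the 62 higher and 43 lower genes past the study's threshold (dashed and dotted lines), and red rings mark the 4 genes given by ID. No point reaches an adjusted p under 0.05.

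The intervals show how large a difference could have been missed. Over the 4640 genes the median absolute log2 fold change was 0.111, and the median standard error was 0.183. The 95% interval of the difference, taken gene by gene with no correction for the number of genes, lay wholly between -1 and 1 on the log2 scale, which is less than a 2-fold change either way, in 3811 genes (82.1%). It lay wholly between -0.5 and 0.5 in 2217 genes (47.8%). The reach of the data depended on expression. In the 1160 genes with the highest expression, the interval stayed within -1 and 1 in 98.8% of genes and within -0.5 and 0.5 in 92.6%. In the 1160 with the lowest expression these shares were 41.3% and 0.172%. The interval reached a median of 0.811 to either side in these genes and 0.224 in the former. Genes past the study's threshold lay mostly at the low end: 53 of the 105 were among the 1160 lowest and 7 among the 1160 highest. In most genes of low expression, a 2-fold difference was therefore not excluded by the interval.

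The 2 genes with the smallest p that were higher with ultrasound in both exosome settings are given first. Their names, positions and sequences are not given here, because the IDs could not be paired with an annotation. ENSRNOG00000019482 had the smallest p of all tested genes. It measured 118, 90.9 and 125 CPM in Control replicates 1, 4 and 9 and 176, 134 and 180 CPM in LIPUS replicates 2, 6 and 7. With exosomes it measured 133, 157 and 184 CPM in Exosome replicates 2, 3 and 5 and 223, 252 and 247 CPM in Exosome+LIPUS replicates 1, 2 and 3. All LIPUS libraries were above all Control libraries, and all Exosome+LIPUS libraries were above all others, while LIPUS and Exosome libraries overlapped. The mean was 202 ± 46.3 CPM with ultrasound and 135 ± 32.3 CPM without (SD, n = 6 each). The log2 fold change was 0.58 (standard error 0.11, 95% interval 0.34 to 0.82, unadjusted p = 0.000135, adjusted p = 0.625 from edgeR). It was 0.55 ± 0.17 (SE) without exosomes and 0.61 ± 0.17 (SE) with them, and the difference of 0.05 between the settings had an interval of -0.45 to 0.56 (edgeR, interaction adjusted p = 0.999). In the same fit, this gene was also higher with exosomes than without, by 0.53 ± 0.11 (SE) on the log2 scale, and that difference did pass the adjustment (edgeR, adjusted p = 0.0127).

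ENSRNOG00000016219 measured 27.7, 42.6 and 31.1 CPM in Control replicates 1, 4 and 9 and 52.7, 62.3 and 37.8 CPM in LIPUS replicates 2, 6 and 7. In the nerves with exosomes it measured 44.5, 30.7 and 21.2 CPM in Exosome replicates 2, 3 and 5 and 76.1, 84.6 and 86.9 CPM in Exosome+LIPUS replicates 1, 2 and 3. The 3 Exosome+LIPUS libraries were the 3 highest, and LIPUS replicate 7 fell inside the range of the libraries without ultrasound. The mean was 66.7 ± 19.3 CPM with ultrasound and 33.0 ± 8.92 CPM without (SD, n = 6 each). The log2 fold change was 0.98 (standard error 0.21, 95% interval 0.52 to 1.44, unadjusted p = 0.000375, adjusted p = 0.871 from edgeR). It was 0.59 ± 0.28 (SE) without exosomes and 1.36 ± 0.28 (SE) with them. The difference between the settings, 0.77, had an interval of -0.07 to 1.61 and did not pass (edgeR, unadjusted p = 0.0689, adjusted p = 0.999).

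The 2 genes with the smallest p among those lower with ultrasound in both exosome settings stood 6th and 8th by p over all genes. The same sign in both settings was required of every gene chosen by p, so it is no separate check. ENSRNOG00000032039 measured 29.9, 26.7 and 64.0 CPM in Control replicates 1, 4 and 9 and 23.3, 18.6 and 21.0 CPM in LIPUS replicates 2, 6 and 7. It measured 61.3, 52.2 and 30.7 CPM in Exosome replicates 2, 3 and 5 and 24.2, 25.5 and 28.7 CPM in Exosome+LIPUS replicates 1, 2 and 3. The 6 libraries with ultrasound lay close together, whereas the 6 without split into 3 near 30 CPM and 3 above 50 CPM. The mean was 23.6 ± 3.52 CPM with ultrasound and 44.1 ± 17.0 CPM without (SD, n = 6 each), and Exosome+LIPUS replicate 3 overlapped the Control libraries. The log2 fold change was -0.90 (standard error 0.23, 95% interval -1.40 to -0.40, unadjusted p = 0.00159, adjusted p = 0.919 from edgeR). Without Control replicate 9, its highest library, the log2 fold change was -0.69.

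ENSRNOG00000017163 was the lower of the 2 genes with no overlap. It measured 101, 78.6 and 77.8 CPM in Control replicates 1, 4 and 9 and 60.5, 63.0 and 53.2 CPM in LIPUS replicates 2, 6 and 7. It measured 71.3, 87.2 and 103 CPM in Exosome replicates 2, 3 and 5 and 68.3, 65.8 and 65.9 CPM in Exosome+LIPUS replicates 1, 2 and 3. The highest library with ultrasound, at 68.3 CPM, lay just under the lowest without, at 71.3 CPM. The mean was 62.8 ± 5.42 CPM with ultrasound and 86.5 ± 13.1 CPM without (SD, n = 6 each). The log2 fold change was -0.47 (standard error 0.12, 95% interval -0.73 to -0.20, unadjusted p = 0.00187, adjusted p = 0.919 from edgeR). It was -0.54 ± 0.18 (SE) without exosomes and -0.39 ± 0.18 (SE) with them. Whether reads of any of these 4 IDs are shared with similar or overlapping genes was not examined.

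**Figure D2:**
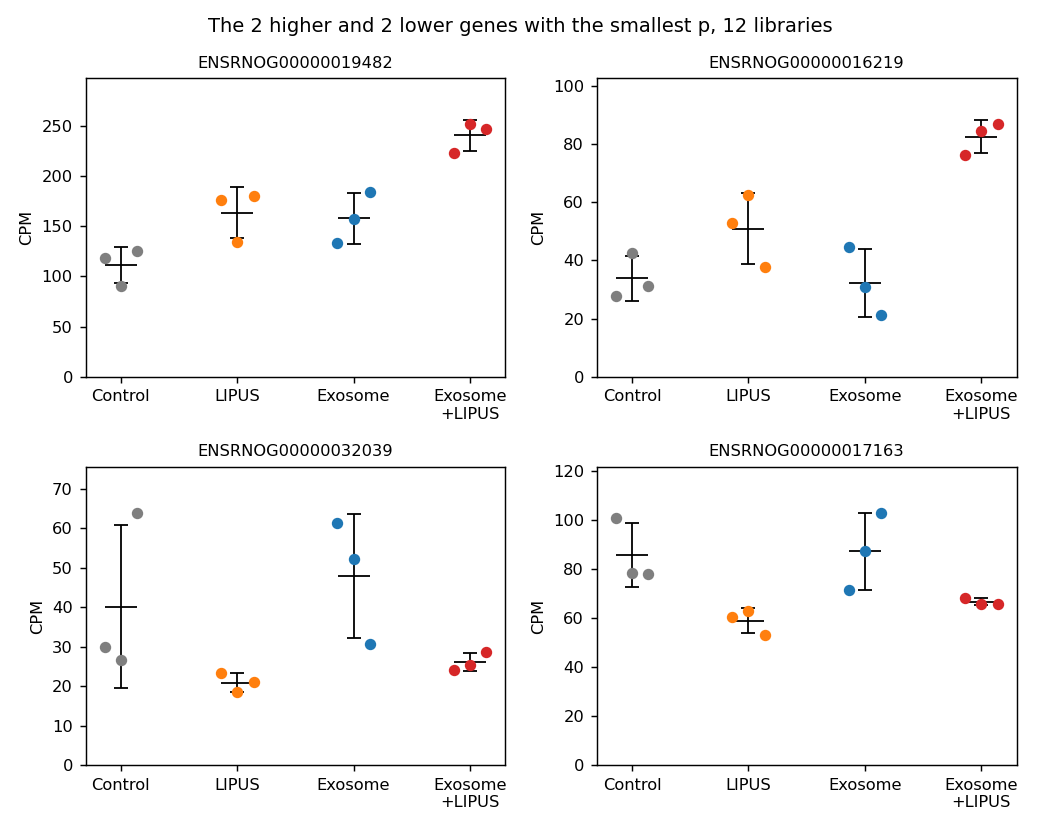
Expression in CPM (y axis, from 0) of the 2 higher and 2 lower genes with the smallest p among those of the same sign in both exosome settings. The x axis gives the 4 groups. Points are libraries, bars the mean ± SD of 3. The Exosome+LIPUS libraries are the 3 highest for both genes in the upper row, and in the lower row the ultrasound groups lie below the others, with an overlap for ENSRNOG00000032039.

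The nerves without and with exosomes give separate measurements of ultrasound. LIPUS was therefore compared with Control, and Exosome+LIPUS with Exosome, in separate fits of 6 libraries that have no library in common. Across the 4133 genes tested in both, which are not independent replicates, the log2 fold changes of the settings had a Pearson correlation of -0.080 and a Spearman correlation of -0.042. The sign was the same in 2012 genes, or 48.7%. Without Control replicate 9 the correlations were 0.013 and 0.015, and 51.3% of 4215 genes had the same sign. At the study's threshold 58 genes (1.40%) were called without exosomes, 24 higher and 34 lower, and 177 (4.28%) with exosomes, 128 higher and 49 lower. These counts were 136 (3.23%), 48 higher and 88 lower, and 178 (4.22%) when Control replicate 9 was left out. Of the 58, 32 (55.2%) had the same sign in the other setting, and of the 177, 83 (46.9%) did. At an adjusted p under 0.05, 0 genes passed in either of these separate fits (edgeR), and without Control replicate 9, 2 genes passed without exosomes. In 4 genes the call at the study's threshold was made in both settings and in the same direction, which is 6.90% of the 58 and 2.26% of the 177. In 5 more genes it was made in both settings in opposite directions.

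**Figure D3:**
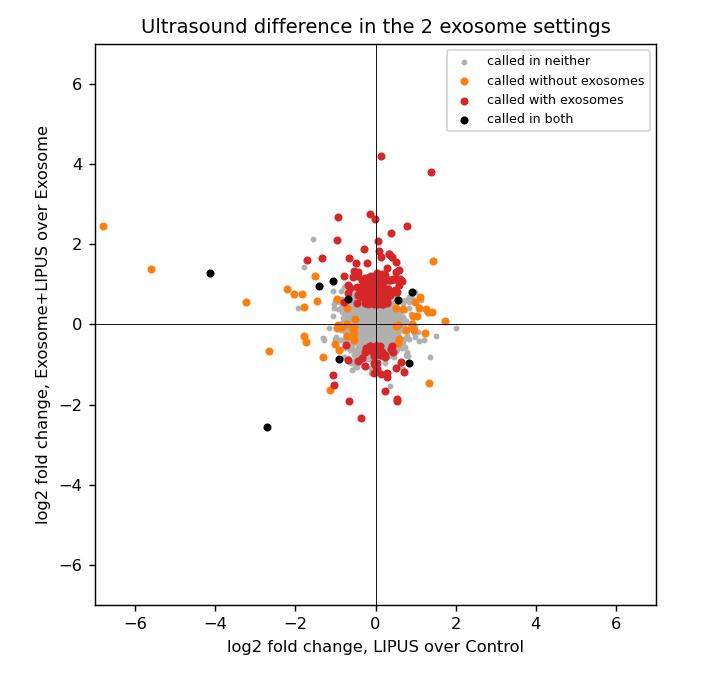
Log2 fold change of LIPUS over Control (x axis) against that of Exosome+LIPUS over Exosome (y axis) for 4133 genes, from separate fits of 6 libraries each. Orange and red points were called at the study's threshold in one setting and black points in both. The 2 sets of fold changes have a Pearson correlation of -0.080.

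When the 4 group means were fitted together over the 12 libraries, the count at an adjusted p under 0.05 was 0 of 4640 genes (0%) for LIPUS against Control, for Exosome+LIPUS against Exosome and for the interaction of exosomes and ultrasound (edgeR). At an unadjusted p under 0.05 there were 113 (2.44%), 256 (5.52%) and 196 (4.22%). For LIPUS against Control this count was 317 without Control replicate 9 and 246 without Control replicate 1, and for the interaction it was 336 and 300. For Exosome+LIPUS against Exosome it was 379 and 285. DESeq2, on all 14298 genes with a count, gave 20 genes an adjusted p under 0.05 for Exosome+LIPUS against Exosome and 0 for each of the others. With edgeR on the same 14298 genes it was 85 for Exosome+LIPUS against Exosome. The cause of the difference between these counts was not tested. Without Control replicate 9, edgeR gave 8 for Exosome+LIPUS against Exosome and 0 for the other 2. At the study's threshold 128 genes (2.76%) were higher and 58 (1.25%) lower for Exosome+LIPUS against Exosome, while 32 (0.690%) were higher and 62 (1.34%) lower for LIPUS against Control. The balance for LIPUS against Control turned with 1 library, since there were 101 higher and 82 lower without Control replicate 1, and 55 higher and 116 lower without Control replicate 9. Among the 62 genes called higher in the main effect, 16 had an unadjusted interaction p under 0.05, as did 2 of the 43 called lower, beside 196 of all 4640.

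The libraries as a whole did not separate by ultrasound. On log2 CPM, the ultrasound term held 7.53% of the variance over the tested genes, where 1 of 11 degrees of freedom is 9.09%. The interaction held 8.11%, the exosome term 18.7% and the differences within the 4 groups 65.6%. The mean Euclidean distance was 43.8 over the 18 pairs of libraries that differ in ultrasound alone and 43.9 over the 12 pairs of the same group. Without Control replicate 9 these were 42.1 over 15 pairs and 41.1 over 10 pairs. It was 48.5 over the 18 pairs that differ in exosomes alone. Of the variance, 21.9% lay on the first principal component, where Control replicate 9 stood at -35.7, with the other 11 libraries between -13.4 and 18.3. On each of the first 6 components the libraries with ultrasound overlapped those without. In the fit of the main effect, the exosome term had 262 of 4640 genes (5.65%) with an adjusted p under 0.05 (edgeR). The median absolute log2 fold change was 0.208 for the exosome term and 0.111 for ultrasound. These are values of the 2 terms side by side, and their difference was not tested.

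**Figure D4:**
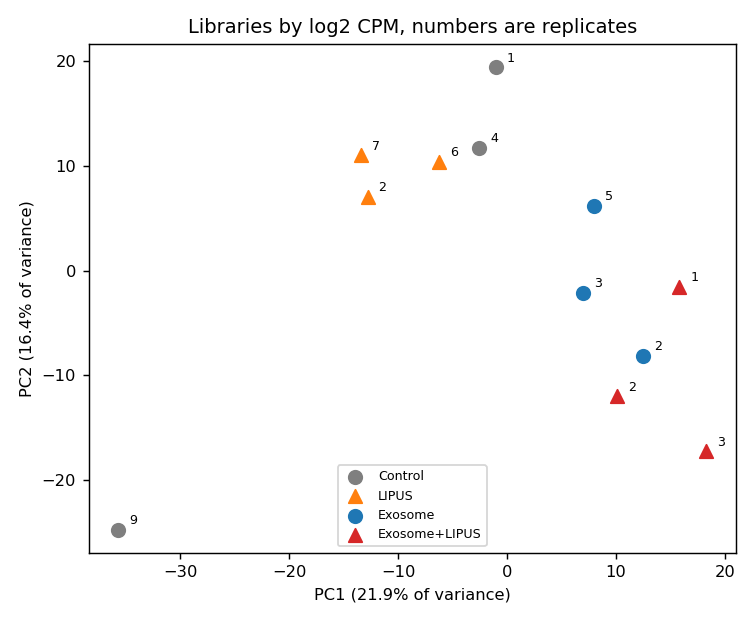
The 12 libraries on the first (x axis, 21.9% of variance) and second (y axis, 16.4%) principal components of log2 CPM over 4640 genes. Triangles received ultrasound and circles did not, with replicate numbers beside them. Triangles and circles overlap on both axes, and Control replicate 9 lies alone at the lower left.

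**Figure D5:**
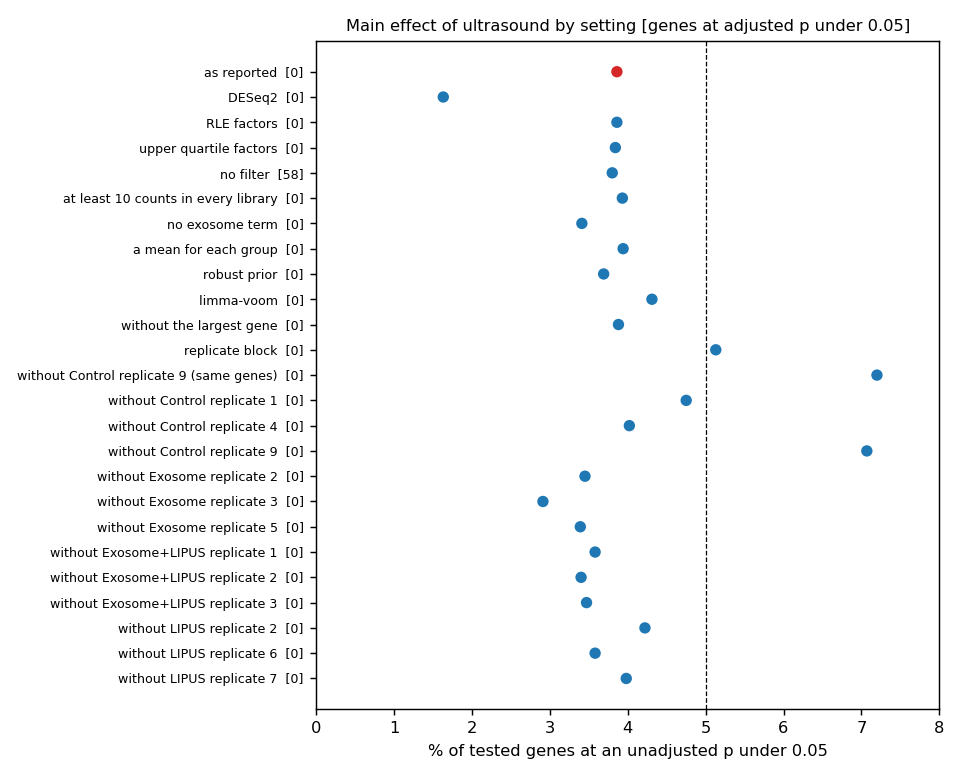
Share of tested genes at an unadjusted p under 0.05 for the main effect of ultrasound (x axis, percent) in the fit as reported (red) and in 24 other settings (blue). The number of genes at an adjusted p under 0.05 is in brackets, and the dashed line is the 5% of an even spread of p-values. The bracketed number is 58 with no filter on low counts and 0 in every other setting, and the share is highest in the fits without Control replicate 9.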

How the data were processed

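RNA sequencing counts of 12 libraries, 3 in each of 4 groups, were taken from one table whose 12 columns were matched to libraries by name. Per the submitters' processing notes and the study's methods, reads were trimmed with Trimmomatic (version 0.38) and aligned with HISAT2 (version 2.0.5), and the authors deposited raw counts per gene, as whole numbers without normalization. The notes also name SAMtools, StringTie and Rnor_6.0. The counting tool and annotation are not given in the sources used here. All libraries carry one batch in the labels.

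Genes were filtered with filterByExpr, scaled with TMM factors (0.626 for Control replicate 9, 0.973 to 1.09 for the others) and tested in R (version 4.3.3) by the quasi-likelihood test of edgeR (version 4.0.16), with terms for exosomes and ultrasound and Benjamini-Hochberg adjustment. Standard errors were derived from the fold change and the F value. Intervals use the test's degrees of freedom. DESeq2 (version 1.42.0) and limma-voom (version 3.58.1) were alternatives. Log2 CPM used a prior count of 2. The filter left out 9658 genes with 0.720% of all counts. The steps were tested on simulated data in which exosomes made no difference, and the outcome is not given here.

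The comparison, gene lists and tests were chosen with earlier results of these data known. The genes to name were, for higher and for lower genes separately, those changed most among genes past the adjustment, filled by the smallest p among genes of the same sign in both exosome settings. Since the reference gene table (47357 rat genes, GRCr8) matched 0 of the 30562 IDs, 2 IDs are given in each direction, and the lists of Schwann cell, macrophage, matrix, muscle and other genes could not be used. Replicates differed by more than counting noise (chi-square over its degrees of freedom 5.10 to 115). Nothing in the labels says how libraries relate to rats, so p-values measure the spread between these libraries. Intervals and floors cover counting error only where they are of counts.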

Additional observations from a re-analysis of the deposited data

Results flagged for a closer look

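Dixon's ratio was computed for 14 sets of 6 libraries with or without ultrasound. Chance alone sets apart about 1 in 20 sets that are independent and not chosen from the data. That rate does not hold here, since the genes given by ID and the largest gene were chosen from these libraries. In the 14 sets, 3 values stood apart from the other libraries on their side. The total count of Control replicate 9 was 1854545, against 1259178 to 1351489 in the other 5 libraries without ultrasound. In the same library the gene with the largest total count, ENSRNOG00000020644, held 32.5% of counts. Its 602028 counts there are part of that total, so these values are not separate. On the ultrasound side it held 9.28% in Exosome+LIPUS replicate 2, against 0.391 to 2.71% in the other 5. For this gene the main effect of ultrasound was -1.44 on the log2 scale with a standard error of 1.46 (edgeR, adjusted p = 1.00). It was -4.15 ± 1.24 (SE) without exosomes and 1.27 ± 1.11 (SE) with them (edgeR, adjusted p = 0.999 and 0.990). The value without exosomes includes Control replicate 9, at 520382 CPM. Control replicates 1 and 4 measured 20348 and 10421 CPM, and the LIPUS libraries 3766 to 21860 CPM. Leaving the gene out of the fit gave 0 genes at an adjusted p under 0.05 and 180 at an unadjusted p under 0.05.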

How the results depend on the processing

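The count of genes at an adjusted p under 0.05 for the main effect of ultrasound (0) was 0 in 23 of 24 alternatives. These were DESeq2, limma-voom, upper quartile and RLE factors, a minimum of 10 counts per library, no exosome term, the 4 group means, a robust prior, the fit without the largest gene, the replicate block, each of the 12 libraries left out in turn and the fit without Control replicate 9 on the same genes, which was chosen after seeing the data. The replicate block left few degrees of freedom, so its counts say little. With no filter on low counts the count was 58, of which 51 were among the 4640 genes tested above. In 14 of the 58, 1 library held over 50% of the gene's counts, and this share was not taken over all genes. In 0 of the 58 did the libraries with and without ultrasound not overlap, beside 2 of the 4640 genes (0.0431%). DESeq2 gave all 58 the same direction, 36 an unadjusted p under 0.05 and 11 no p. In the edgeR fit with no filter, the prior for the spread had infinite degrees of freedom, against 5.84 with the filter. Genes were thus given one common trend. Of the genes given by ID, 3 passed in that fit alone (ENSRNOG00000019482 with an adjusted p of 0.00552, ENSRNOG00000016219 with 0.000227 and ENSRNOG00000032039 with 0.0185, edgeR). All 4 kept their direction in all 24 alternatives, which reuse the libraries the genes were chosen from and so are no separate check.

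At an unadjusted p under 0.05 the count (179) was 543 with no filter and 334 without Control replicate 9 on the same genes, and it ranged from 140 to 341 when each replicate was left out. At the study's threshold (62 higher, 43 lower) it was 101 and 69 with DESeq2 (97 genes shared with the 105), 258 and 183 with no filter, and 42 and 18 with the minimum of 10 counts, where 70.0% of calls were higher against 59.0%. Leaving out each replicate gave 48 to 80 higher and 27 to 59 lower. The cause was not tested.

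For LIPUS against Control (0 genes), no filter gave 47, and leaving out each replicate 0 to 1. For Exosome+LIPUS against Exosome (0), it was 85 with no filter, 20 with DESeq2, 1 with RLE factors and 0 to 8 when each replicate was left out. The interaction (0) was 64 with no filter and 0 in each fit without one replicate.

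With the replicate number as a block, the main effect had 0 genes at an adjusted p under 0.05 and 238 at an unadjusted p. In its 6 libraries alone, Exosome+LIPUS against Exosome had 11 (adjusted), resting on the pairs numbered 2 and 3 only. Deviations from the group means correlated between -0.119 and 0.115 over the 5 same-numbered pairs and between -0.151 and 0.148 over the 49 other pairs. With 5 pairs, this cannot tell whether same-numbered libraries share more than a number. The gene lists and muscle covariate need gene names and were not run.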

Other observations

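Among the 9658 genes with a count that were too low to test, 30 had a count in at least 4 of the 6 libraries with ultrasound and in none without, and 18 had one in at least 4 of the 6 without and in none with. The highest count of these 48 genes in any library was 7. In 1 gene the count was above 0 in all 6 libraries with ultrasound and 0 in all 6 without, and in 0 genes the reverse. These are values at the limit of the depth and were not tested.

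Expression varied about equally within 3 of the groups. The median over genes of the SD of log2 CPM between 3 replicates was 0.232 with LIPUS, 0.227 with Exosome and 0.234 with Exosome+LIPUS, and it was 0.333 in the Control group, which holds Control replicate 9.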
